A study of Homo sapiens with 37 samples.

Results

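The erythroid transcription factor genes described here are the 10 genes of the network around GATA1, TAL1 and KLF1: GATA1, GATA2, KLF1, TAL1, LMO2, LDB1, NFE2, GFI1B, ZFPM1 and BCL11A. They were chosen by name, through the Ensembl identifiers of the deposited table, by a rule that uses no measured value, though earlier results of these data were known. They are 10 of the 32055 genes in that table. K562 is an established human leukemia line with erythroid features, derived from chronic myeloid leukemia in blast crisis. The study measured its RNA by bulk SCRB-seq, which reads the 3′ ends of polyadenylated transcripts and counts unique molecular identifiers (UMIs), short tags that let each captured RNA molecule be counted once. The 26 libraries labelled KO came from K562 cells in which ZBTB7A, a zinc finger repressor active in blood cells, was targeted with Cas9 and 1 of 2 guide RNAs. The 11 libraries labelled Control came from K562 cells with the study's control treatment, which in its methods is the same plasmid without a guide.

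Cells were sorted singly and expanded, so that each line is a clone, and the labels give no treatment of either group. The labels give neither the clone nor the guide of a library, so libraries of a group may come from the same clone, and the p-values measure the spread between libraries, which may be partly technical. Libraries are named here by group and replicate number, and the number is only a name. The effect of the ZBTB7A edit could not be checked on its own RNA, since reads from the 3′ end lie away from the edited site. In UMIs, ZBTB7A held 62 to 314 in KO and 21 to 296 in Control, with a log2 fold change of 0.12 (SE 0.09, adjusted p = 0.331).

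The members of this network are DNA-binding proteins and the adaptors that hold them together. GATA1 and GATA2 bind GATA sites, and during red cell formation GATA1 takes over sites that GATA2 held in progenitors, a change known as the GATA switch. TAL1 binds E-boxes with an E-protein partner, LMO2 links it to a GATA factor, and LDB1 joins such complexes across distance, as between the globin locus control region and a globin promoter. KLF1 activates adult erythroid genes through CACCC-type sites, NFE2 binds the globin control regions as the larger subunit of NF-E2, and ZFPM1 (FOG1) is the cofactor without which GATA1 cannot act at many of its sites. GFI1B and BCL11A are repressors, the former of progenitor genes and the latter of fetal globin. Members of the network are known to regulate each other's genes.

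Stretches upstream of start sites are shown for 4 members as a description, because members of the network are known to regulate each other's genes. Whether any match bears on the differences between the groups was not tested. Sequences are from RefSeq windows on GRCh38.p14 that run from 250 bases before to 50 bases after each start site. Windows were given for 8 of the 10 members, 15 windows in all, and only the part before the annotated gene is printed, 5′ to 3′ on the gene's strand. Capitals mark matches on either strand to AGATAA, or to this with T as the first base, G as the last, or both (GATA motif), in KLF1 and TAL1, and to CCNCNCCC (KLF motif) in GATA1 and GATA2. KLF1 is shown at chr19:12887202-12887451 and TAL1 at chr1:47232336-47232585, both on the minus strand. GATA2 is shown at chr3:128493202-128493451 on the minus strand and GATA1 at chrX:48786340-48786539 on the plus strand.
KLF1: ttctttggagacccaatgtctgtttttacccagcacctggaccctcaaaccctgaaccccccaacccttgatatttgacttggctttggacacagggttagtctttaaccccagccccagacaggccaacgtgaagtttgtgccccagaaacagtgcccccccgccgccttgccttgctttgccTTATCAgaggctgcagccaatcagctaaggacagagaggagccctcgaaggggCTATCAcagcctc
TAL1: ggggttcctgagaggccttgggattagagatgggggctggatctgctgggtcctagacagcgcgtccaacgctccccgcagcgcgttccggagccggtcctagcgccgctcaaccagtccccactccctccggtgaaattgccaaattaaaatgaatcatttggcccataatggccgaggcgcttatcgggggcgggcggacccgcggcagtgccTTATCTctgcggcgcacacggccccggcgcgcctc
GATA2: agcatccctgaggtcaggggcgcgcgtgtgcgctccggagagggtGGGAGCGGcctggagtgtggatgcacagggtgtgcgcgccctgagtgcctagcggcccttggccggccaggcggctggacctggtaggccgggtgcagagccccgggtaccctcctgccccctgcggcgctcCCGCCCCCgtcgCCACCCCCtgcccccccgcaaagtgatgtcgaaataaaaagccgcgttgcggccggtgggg
GATA1: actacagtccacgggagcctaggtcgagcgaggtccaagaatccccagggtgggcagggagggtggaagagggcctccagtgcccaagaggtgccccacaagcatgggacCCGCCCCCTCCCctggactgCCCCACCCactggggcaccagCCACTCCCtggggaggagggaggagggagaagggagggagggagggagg
The KLF1 stretch held 2 GATA matches, which began 66 and 13 bases before the start site, and the TAL1 stretch held 1, which began 35 bases before it. The GATA2 stretch held 3 KLF matches and the GATA1 stretch 4, of which the first 2 overlap each other. Of the 15 member windows, 4 held a GATA motif, in KLF1, TAL1 and both windows of GFI1B, while 8769 of all 35116 RefSeq windows (25%) held one. A KLF motif was in 11 of the 15 (56.2% of all windows), an E-box (CANNTG) in 7 (68.7% of all windows), and the NF-E2 core (TGANTCA) in 1, that of TAL1 (7.71% of all windows). Some genes have several windows, a few of which overlap, and a match is only a run of letters, not a site shown to be bound.

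Library totals ran from 563235 to 4710809 UMIs. The median was 2030965 in KO and 3518944 in Control, so the groups differed in depth, and the members together took 0.115% to 0.161% of a library's UMIs. Of the 380 pairs of libraries within a group, none agreed within sampling noise, with a smallest chi-square per degree of freedom of 1.14, and all libraries were counted separately. The 6-base well barcode moved with the label: 12 of 26 KO libraries but 1 of 11 Control libraries had a barcode rich in G and C (at least 4 such bases), and AT-rich barcodes (at most 2) were on 12 KO libraries and 8 of Control. The comparison was also made within AT-rich barcodes and with barcode class as a covariate. With the covariate, GATA1 (-0.15, adjusted p = 0.122) and KLF1 (-0.17, adjusted p = 0.141) lost their calls, LDB1 gained one (-0.26, adjusted p = 0.0230), and LMO2 was at 0.48 (adjusted p = 0.00025). KO replicate 18 stood near the Control libraries in several members, and Control replicates 4, 8 and 9 stood above the other controls in GATA1, LMO2 and KLF1. Each of these libraries was left out singly, the Control replicates never together, and calls that changed are given. Many erythroid markers were detected in both groups. The embryonic globin gene HBZ had a mean CPM (UMIs per 1000000 of a library, after scaling) of 452 in Control and 527 in KO. Others were low, the globin gene HBB at a mean of 1.78 CPM in Control and 0.917 in KO and AHSP at 4.73 and 1.39. The megakaryocyte marker PF4 and the stem cell marker CD34 were at or near 0, whereas other megakaryocyte genes were detected, CD9 at 23.2 CPM in Control and 39.5 in KO and THBS1 at 7.92 and 29.9.

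Of the 10 members, 9 passed the filter on low counts, and BCL11A did not. In edgeR's quasi-likelihood test across 10661 genes, 7 of the 9 had a Benjamini-Hochberg adjusted p under 0.05: TAL1, LMO2 and GFI1B were higher in KO, and GATA1, GATA2, KLF1 and NFE2 were lower. Over all genes tested, 33.8% were called at that threshold, 17.7% higher and 16.2% lower in KO. With an absolute log2 fold change above 0.5 as well, 3 members were called, beside 10.2% of all genes: LMO2 was higher (6.65% of all genes) and GATA2 and NFE2 were lower (3.53%). The median log2 fold change was -0.19 over the 9 members and 0.00 over all genes tested. In no member were the groups free of overlap, while 0.281% of all genes had such groups.

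The GATA factors were both lower in KO, GATA2 by more than GATA1. GATA2, the factor of stem and progenitor cells (chr3:128479427-128493201, minus strand, GRCh38), had a lowest, median and highest level of 7.36, 7.57 and 7.76 log2 CPM in Control, against 6.63, 6.93 and 7.57 in KO. In raw counts it held 119 to 761 UMIs in Control and 120 to 557 in KO. All KO libraries but 2 lay below the lowest Control library, and the highest of them was KO replicate 18. The mean was 7.55 ± 0.15 log2 CPM in Control (SD, n = 11) and 6.997 ± 0.23 in KO (SD, n = 26), and the log2 fold change was -0.53 (SE 0.07, adjusted p = 1.4e-07), a fold of 0.691. GATA2-AS1, which overlaps GATA2 on the opposite strand and held 1801 UMIs over all libraries against 14090 for GATA2, had a log2 fold change of -0.91 (SE 0.10, adjusted p = 6.1e-09). The sources used here do not state whether reads were counted by strand, so reads of such pairs may not have been told apart.

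GATA1, the factor that drives red cell maturation (chrX:48786540-48794311, plus strand), had the highest mean of the members in Control, with a lowest, median and highest level of 7.92, 8.14 and 8.55 log2 CPM. In KO these were 7.70, 7.98 and 8.44, from 259 to 1077 UMIs per library. The groups overlapped widely: 17 of the 26 KO libraries lay within the Control range, 9 below it and none above. The mean was 8.20 ± 0.24 in Control (SD, n = 11) and 8.02 ± 0.19 in KO (SD, n = 26), and the log2 fold change -0.19 (SE 0.07, adjusted p = 0.0303). The Control range owes its top to replicates 9, 8 and 4, at 8.48 to 8.55, the next being at 8.29. The call was lost when any 1 of Control replicates 4, 6, 8 or 9 was left out (adjusted p 0.0579 to 0.0906) and within AT-rich barcodes, where the log2 fold change was -0.13 (adjusted p = 0.292).

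The TAL1, LMO2 and LDB1 genes, whose proteins form 1 complex, did not move together: TAL1 and LMO2 were higher in KO, and LDB1 did not pass the test. LMO2, the bridging LIM-domain protein (chr11:33858576-33892076, minus strand), had a lowest, median and highest level of 7.68, 8.03 and 8.54 log2 CPM in Control and of 8.16, 8.61 and 8.97 in KO. All KO libraries lay above the Control median and 17 lay above the highest Control library. The log2 fold change was 0.51 (SE 0.09, adjusted p = 3.7e-05), a fold of 1.42, from 8.09 ± 0.27 in Control (SD, n = 11) to 8.59 ± 0.25 in KO (SD, n = 26). It kept its call in every alternative, but the log2 fold change was in several of them under the 0.5 of the second threshold. It was 0.43 within AT-rich barcodes, 0.47 after thinning, 0.48 with barcode class as a covariate and 0.497 with no filter on low counts. Leaving out 1 library, it fell as low as 0.47.

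TAL1, the basic helix-loop-helix factor of the complex (chr1:47216290-47232225, minus strand), had a lowest, median and highest level of 5.83, 5.96 and 6.26 log2 CPM in Control, and of 5.76, 6.14 and 7.06 in KO. The KO libraries were not spread evenly. In 16 of them TAL1 was at 5.76 to 6.21, and in the other 10 at 6.64 to 7.06, with none in the 0.44 between. Only those 10 lay above the highest Control library, and 2 KO libraries lay below the lowest. The mean was 5.98 ± 0.13 in Control (SD, n = 11) and 6.33 ± 0.44 in KO (SD, n = 26), and the log2 fold change 0.39 (SE 0.14, adjusted p = 0.0258). This difference of means therefore describes 10 of the 26 KO libraries, not a shift of all of them. Both sets held libraries of each barcode class, with 5 AT-rich, 4 GC-rich and 1 mixed barcode in the upper and 7, 8 and 1 in the lower. The sets differed in depth, with totals of 1070250 to 2164774 UMIs in the upper and 1348241 to 4270901 in the lower. Whether depth bears on the split was not tested. The call was lost with limma-voom (0.31, adjusted p = 0.0525) and within AT-rich barcodes (0.43, adjusted p = 0.0736). It was also lost after all libraries were thinned to the smallest total (0.37, edgeR adjusted p = 0.120).

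LDB1, the dimerizing adaptor (chr10:102106489-102120368, minus strand), varied little in Control, from 5.27 to 5.66 log2 CPM with a median of 5.48. In KO it ran from 4.77 to 5.82 with a median of 5.27, and 13 KO libraries lay below and 2 above the Control range. The log2 fold change was -0.20 (SE 0.08, adjusted p = 0.0582). Without KO replicate 18, where LDB1 was second highest at 5.74, it was -0.22 and passed the threshold (adjusted p = 0.0278), as it did within AT-rich barcodes (-0.32, adjusted p = 0.0126). After all libraries were thinned to the smallest total it was 0.00 (adjusted p = 0.988), and the cause was not tested. Among 2520 genes within 1.5 times its mean level, 4.48% had a smaller SD than LDB1 over the Control libraries, and 71.7% over the KO libraries.

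KLF1 and NFE2, both activators of globin and other erythroid genes, were lower in KO, NFE2 by the larger amount. NFE2 (chr12:54292111-54301015, minus strand) had a lowest, median and highest level of 7.67, 7.99 and 8.14 log2 CPM in Control, and of 7.06, 7.40 and 8.11 in KO. Of the 26 KO libraries, 25 lay at or under 7.65, below every Control library, and the exception was KO replicate 18 at 8.11. The log2 fold change was -0.52 (SE 0.07, adjusted p = 1.4e-07), a fold of 0.695, and -0.56 without that library (adjusted p = 2.5e-10). An unnamed gene on the opposite strand, ENSG00000258344, overlaps NFE2 and held 70390 UMIs over all libraries against 18344 for NFE2. Its own log2 fold change was -0.06 (SE 0.03, adjusted p = 0.148).

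KLF1 (chr19:12884422-12887201, minus strand) had a lowest, median and highest level of 7.19, 7.47 and 7.85 log2 CPM in Control, and of 6.69, 7.33 and 7.61 in KO. In 5 KO libraries, replicates 7, 9, 19, 21 and 23, it was at 6.69 to 6.86, and the other 21 began at 7.15. The log2 fold change was -0.22 (SE 0.08, adjusted p = 0.0390). In all, 6 KO libraries lay below the lowest Control library and 20 lay within the Control range. The call was lost in 10 of the 37 fits that left out 1 library, among them those without Control replicate 4, 8 or 9. It was also lost within AT-rich barcodes (-0.16, adjusted p = 0.292).

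**Figure D1:**
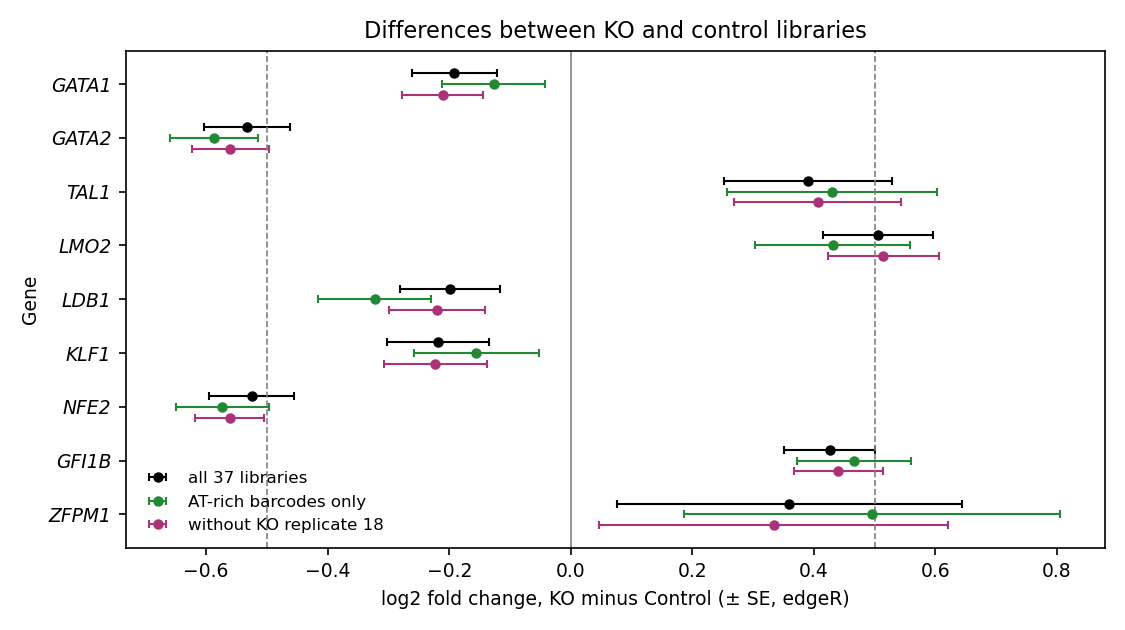
Log2 fold change, KO minus Control, of the 9 tested genes (horizontal axis, points with SE from edgeR) over all 37 libraries (black), within AT-rich barcodes (green) and without KO replicate 18 (purple), with dashed lines at 0.5 in either direction. GATA2 and NFE2 lie below -0.50 in all 3 fits, while GATA1 and KLF1 move toward 0 within AT-rich barcodes.

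The cofactor and repressor genes differed in how well they could be measured. GFI1B, the repressor of progenitor genes (chr9:132944000-132991687, plus strand), had a lowest, median and highest level of 5.53, 5.84 and 6.23 log2 CPM in Control, and of 5.85, 6.27 and 6.59 in KO. In KO 17 libraries lay above the highest Control library, and the lowest of all was KO replicate 18. The log2 fold change was 0.43 (SE 0.08, adjusted p = 2.6e-05), a fold of 1.34. TSC1, which overlaps GFI1B on the opposite strand, was at 0.04 on the same scale (adjusted p = 0.776).

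ZFPM1, the GATA1 cofactor FOG1 (chr16:88453280-88537031, plus strand), held 0 to 52 UMIs in Control and 3 to 39 in KO. As unscaled CPM of all UMIs, its highest KO library, replicate 10, was at 27.3 (95% exact Poisson interval 19.4 to 37.3) and its lowest, replicate 17, at 1.49 (0.308 to 4.36). These intervals, which cover counting error only, do not overlap, so the spread among KO libraries was wider than counting alone gives. Control replicate 7, the shallowest library, had 0 UMIs, where a floor of 3 counts is 5.33 CPM and the exact interval reaches 6.55. The mean was 2.74 ± 1.14 log2 CPM in Control (SD, n = 11) and 3.26 ± 0.87 in KO (SD, n = 26), and the log2 fold change 0.36 (SE 0.28, adjusted p = 0.346). Its biological coefficient of variation, the spread between libraries beyond counting, was 0.504, at percentile 96.8 of all genes tested, against a common value of 0.154.

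BCL11A, the repressor of fetal globin (chr2:60450520-60554467, minus strand), held 1 to 20 UMIs in Control and 0 to 18 in KO. Its mean was 3.40 CPM in Control and 3.07 in KO, and with no filter on low counts its log2 fold change was -0.13 (SE 0.21, adjusted p = 0.766). No difference in BCL11A was detected.

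Ratios of partner genes within a library do not depend on scaling to library size. They were taken as differences of log2 CPM with a prior count of 2, and 3 were compared by two-sided permutation tests with 100000 resamples, adjusted over the 3. The ratio of LMO2 to LDB1, neighbours in the complex, was 2.62 ± 0.24 in Control (SD, n = 11) and 3.34 ± 0.22 in KO (SD, n = 26), a difference of 0.72 (permutation p = 1e-05, the smallest these resamples can give, adjusted p = 3e-05). It was above the highest Control library in 25 of 26 KO libraries, KO replicate 18 at 2.61 being the exception. LDB1 alone had not passed its test.

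The ratio of GATA1 to GATA2, which rises in the GATA switch, was 0.65 ± 0.33 in Control (SD, n = 11) and 1.03 ± 0.32 in KO (SD, n = 26). The difference was 0.38 (permutation p = 0.00279, adjusted p = 0.00418), and 8 KO libraries lay above the highest Control library. In group means both genes were lower in KO, so the higher mean ratio came with less GATA2 and not with more GATA1. The 8 libraries all belonged to the 10 KO libraries with TAL1 at 6.64 or more. Their totals were 1225590 to 2052701 UMIs, beside medians of 2030965 in KO and 3518944 in Control. In these 8, GATA1 was at 8.07 to 8.32 log2 CPM, in most above the Control median of 8.14, and GATA2 at 6.63 to 6.94. The higher ratio and the lower GATA1 were therefore not traits of the same KO libraries throughout. The ratio of GATA1 to ZFPM1 was 5.46 ± 1.02 in Control (SD, n = 11) and 4.76 ± 0.73 in KO (SD, n = 26), a difference of -0.70 (permutation p = 0.0208, adjusted p = 0.0208). It rested on Control replicate 7, which has no ZFPM1 count and a ratio of 8.32 that is set by the prior count. Without it the difference was -0.41 (permutation adjusted p = 0.103).

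The order of the members by level was not the same in the groups. Counts from 3′ ends do not grow with transcript length, so levels of different genes can be set side by side, within the limits of unequal capture. In Control GATA1 led with 8.20 log2 CPM, and GATA1 and LMO2, LMO2 and NFE2, GATA2 and KLF1, TAL1 and GFI1B, and ZFPM1 and BCL11A were neighbours that differed by less than the larger of their SDs. In KO LMO2 led with 8.59, and only NFE2 and KLF1, and TAL1 and GFI1B, were as close. Within single libraries GATA1 held more UMIs than LMO2 in 8 of 11 Control libraries but in 5 of 26 KO libraries. LMO2 exceeded NFE2 in 8 of 11 Control libraries and in all 26 KO libraries, and NFE2 exceeded KLF1 in all 11 Control libraries and in all but 5 of the KO libraries.

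The members also differed in how they varied among the KO libraries. TAL1 had the widest spread for its level, with a KO SD larger than that of 96.1% of 2131 genes within 1.5 times its mean, against 31.5% in Control. For GFI1B this share was 58.7% in KO. Because TAL1 separates the KO libraries into 2 sets, no correlation over all KO libraries is given, and Spearman's rho was taken within the 16, within the 10 and within the 11 Control libraries, as a description. LMO2 and LDB1 had a positive rho in each, of 0.591, 0.648 and 0.382, the weakest being in Control. KLF1 and LMO2 had rho of 0.600, 0.188 and 0.918, and Control replicates 4, 8 and 9 were highest in both. GATA1 and LMO2 had -0.206, -0.600 and 0.627, and Control replicates 4, 8 and 9 were again highest in both. GATA2 and ZFPM1 had 0.806, -0.309 and -0.727. Libraries that share a clone, a depth or a barcode class are not independent points.

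For each member with a mean of at least 10 CPM, the 2 genes closest to it were found among 8605 genes by the rank correlation over the KO libraries. Their rho is given within the TAL1-lower 16, within the upper 10 and in Control. The genes were picked over these same KO libraries, so the first 2 values are raised by that choice, and only the Control value is apart from it. For TAL1 they were PPOX, an enzyme of heme synthesis (0.629, 0.806 and 0.418), and NARF (0.718, 0.818 and 0.300). For NFE2 they were CTDSP1 (0.782, 0.515 and 0.282) and EPOR, the erythropoietin receptor (0.768, 0.491 and 0.055). Between the groups EPOR went the other way from NFE2, being higher in KO (log2 fold change 0.97, edgeR adjusted p = 1.8e-08). For GATA1 they were C17orf99 (0.844, 0.467 and 0.391) and B3GALT1-AS1 (0.694, 0.539 and -0.664). For LMO2 they were ASH2L, a subunit of histone methyltransferase complexes (0.706, 0.855 and -0.082), and ELOVL6, a fatty acid elongase (0.782, 0.794 and -0.164). GATA2 was closest to ELK3 and LRRC8C, KLF1 to HSPD1 and CTU2, LDB1 to ZNF74 and NDUFAF6, and GFI1B to TKFC and TUBG1. Of these 8 genes, ZNF74 had 0.755 and TUBG1 0.555 in Control, and the other 6 were negative there.

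Around the members, the list of partner proteins of the network had 30 genes, of which 26 were tested, 5 were higher and 3 lower in KO, beside 17.7% and 16.2% of all genes tested, so the 8 called were near the background share. The median log2 fold change of the list was 0.03. The higher ones were small changes, led by SSBP3 (0.35), a protein that stabilizes LDB1, TRIM33 (0.28), SSBP4 (0.25) and the NFE2-related repressor BACH1 (0.25). The lower ones were MYB (-0.79, SE 0.16, adjusted p = 0.000145), a factor of proliferating progenitors, IKZF1 (-0.39) and RCOR1 (-0.25). MYB was below the lowest Control library in 23 of 26 KO libraries. Among 32 relatives of the members, 15 were tested and 4 were higher and 1 lower in KO, also near the background of 33.8%. GATA6 rose by 1.26 (SE 0.13, adjusted p = 6.1e-10) and lay above every Control library in 25 of 26 KO libraries, from a mean of 12.6 CPM in Control to 29.8 in KO, while ZFPM2 (FOG2) rose by 0.95, KLF9 by 0.43 and KLF10 by 0.32, and NFE2L2 fell by 0.23 on the log2 scale.

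Of 48 erythroid target genes, 37 were tested, 12 were higher and 4 lower (17.7% and 16.2% of all genes), and the median log2 fold change of the 37 was 0.13 beside 0.00 over all genes. The largest rises were SLC4A1 (band 3, 2.07), RHCE (1.53), RHD (1.51) and ALAS2 (1.41), the first enzyme of erythroid heme synthesis. SLC4A1, with a mean of only 3.06 CPM in Control, passed the count filter through the KO libraries, and it is among the 12 counted as higher. SLC4A1 and ALAS2 lay above the Control range in 10 of 26 KO libraries. Their KO medians (2.34 and 6.18 log2 CPM) were below the highest Control library (3.37 and 6.55). RHCE and RHD each lay above it in 14. RHCE and RHD are near-identical, so reads may be split between them. TFR2 (-0.81), SPTB (-0.54), TFRC (-0.37), the transferrin receptor, and STEAP3 (-0.29) were lower. HBG1 (-0.41, adjusted p = 0.0583), HBG2 (-0.09, adjusted p = 0.793) and HBZ (0.20, adjusted p = 0.611) did not pass. Of 18 megakaryocyte genes only 4 passed the count filter, and GP1BA (3.35), THBS1 (1.89), CD9 (0.77) and MEIS1 (0.62) were called higher. GP1BA was at most 2.17 CPM in Control and passed the filter through the KO libraries, where its mean was 13.5. MEIS1 was also low in Control, at a mean of 4.23 CPM against 6.33 in KO, so it too may have passed through KO. For this reason no count over this list is drawn on. The list's summed level was 49.1 to 158 CPM in KO and 27.5 to 54.2 in Control, with PF4 near 0 in both, and the part of such cells in the results was not tested. Among 20 myeloid genes 4 were tested, ITGAM being higher (1.23) and CD33 lower (-0.66). ITGAM, at most 3.06 CPM in Control, likewise passed through KO. The summed level was 95.7 to 171 CPM in KO and 142 to 188 in Control. Among 15 stem, progenitor and mast cell genes linked to GATA2, 4 were tested and MECOM was lower (-0.32).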

How the data were processed

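Bulk SCRB-seq libraries of K562 cells, 26 KO and 11 Control per the labels, were analysed from 1 deposited table of UMI counts per gene. The authors made these counts with zUMIs (version not given in the sources used here) and STAR 2.6.0a, per the submitters' processing notes, on hg38 with Ensembl gene models, and deposited them without normalization. Symbols and positions were taken from GENCODE 44 (GRCh38). Well barcodes, which name the libraries, came from the labels.

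Genes were filtered with filterByExpr, scaled by TMM and tested for KO against Control with the robust quasi-likelihood test of edgeR 4.0.16 in R 4.3.3, with Benjamini-Hochberg adjustment over the 10661 genes tested. The study used limma, which was run as an alternative (limma-voom 3.58.1), as was DESeq2 1.42.0. Levels are log2 CPM with TMM factors and a prior count of 2. Ratios were tested by permutation and Poisson intervals computed with SciPy 1.17.1. Scripts were tested on simulated counts. Further alternatives scaled by RLE or by library size only, dropped the count filter or asked for a mean of 10 CPM, added barcode class to the model, kept AT-rich barcodes, thinned libraries to the smallest total, left out each library in turn, and took ratios with a prior count of 0.5 or 5.

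Named genes were all 10 members, in each list up to 4 called genes that rose most and up to 4 that fell most, and for each member with a mean of at least 10 CPM the 2 genes with the highest rank correlation over the KO libraries. Markers and values outside this rule (HBZ, HBG1, HBG2, HBB, AHSP, PF4, CD34, TSC1, GATA2-AS1, ENSG00000258344 and the targeted ZBTB7A) are given as checks, chosen after their values were seen. The members and lists were chosen with earlier results of these data known. HBE1, GP9, MPO and ELANE are among the listed genes that were not analysed here.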

Additional observations from a re-analysis of the deposited data

How the results depend on the processing

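Over 9 alternatives and 37 fits that each left out 1 library, GATA2, NFE2, LMO2 and GFI1B kept their direction and their call. Leaving out 1 library, their log2 fold changes ran from -0.56 to -0.50, -0.56 to -0.50, 0.47 to 0.56 and 0.39 to 0.47. No fold change or ratio changed direction, and 27 values lost their call and 8 gained one. The other 624 were labelled the same, which for fold changes and ratios means the same side of the threshold. Counts of called genes are among the 624 by a looser rule, under which 5 members called in place of 7 was still the same. The number of members called ran from 5 to 8 over all fits, and the number also past 0.5 from 2 to 3. GATA1 lost its call in 3 alternatives (highest adjusted p = 0.292) and 4 of the fits without 1 library, KLF1 in 5 (0.370, thinned) and 10, and TAL1 in 4 (0.120, thinned) and none. LDB1 gained one in 3 and 5. The difference in the GATA1 to ZFPM1 ratio ran from -0.79 to -0.41 when 1 library was left out, and only without Control replicate 7 (-0.41, permutation adjusted p = 0.103) did it miss the threshold. With no filter on low counts 10.7% of genes were called, within AT-rich barcodes 25.4% and after thinning 21.1%. Thinning tested 7759 genes, ZFPM1 not among the 8 members left. No paired analysis was possible because the labels carry no replicate numbers. BCL11A held 20 UMIs or fewer in each library, and ZFPM1 spread widely between libraries, so both are measured with low precision.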
